A study of Mus musculus with 9 samples.

Results

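Pld5, Coro2a and Padi2 are 3 of the 21965 genes counted in spleen libraries of 16-week-old mice. They were selected on their measured counts, as genes nearly silent in BALB/c and expressed in both BWF1 groups. These levels are therefore given as a description, without a test. All 3 passed the filter on low counts, as did 7719 genes in all. The groups were 3 BWF1 females (NZB x NZW F1, named as lupus-prone), 3 BWF1 males of the same cross, named as not prone, and 3 BALB/c females, an unrelated strain also named as not prone. No treatment is named. The labels give 3 samples a group without naming the animals, so p-values measure the spread between these libraries, which may be technical. Whole splenocytes were used according to the series text, but the labels of the samples give macrophages, sorted as CD11b+F4/80+ after collagenase digestion.

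The 3 genes encode unrelated proteins. Pld5 belongs to the phospholipase D family by sequence but is classed as an inactive member that lacks the catalytic residues. Coro2a is a coronin, a WD-repeat protein that binds actin, and also a component of the NCoR corepressor complex, where it has been tied to the release of NCoR from inflammatory promoters after Toll-like receptor signals in macrophages. Padi2 encodes a calcium-dependent peptidylarginine deiminase, which converts arginine in proteins to citrulline. Citrullinated proteins are targets of autoantibodies, and histone citrullination accompanies the release of neutrophil extracellular traps, a process tied mostly to its relative Padi4.

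In GENCODE M21 on mm10, Pld5 (ENSMUSG00000055214) lies on the minus strand of chromosome 1, from 175962306 to 176275312. It is the longest of the 3, with a span of 313 kb and 10094 bases of exon. Coro2a (ENSMUSG00000028337) lies on the minus strand of chromosome 4, from 46536937 to 46602202, with 6459 bases of exon. Padi2 (ENSMUSG00000028927) lies on the plus strand of the same chromosome, from 140906344 to 140952586, with 5013 bases of exon. Coro2a and Padi2 start 94.3 Mb apart, so they are not neighbours. Exons of Coro2a and Padi2 overlap antisense transcripts by 176 and 149 bases. These antisense genes were not counted, and the library kit was not described as marking the strand, so their reads cannot be told from those of Coro2a and Padi2.

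The sequences upstream of the starts are shown as a description. They come from the reference genome and not from the mice of these groups, so they cannot show a difference between BWF1 and BALB/c. RefSeq promoter windows on GRCm38.p6 matched all 3 genes, with 1 window each for Pld5 and Padi2 and 2 for Coro2a. Each run below holds 220 bases, 5′ to 3′ in the direction of transcription, and ends 30 bases before the RefSeq start. Capitals mark GC boxes. The RefSeq start of Pld5, 176213942, lies inside the span given above, whose GENCODE start on the minus strand is 176275312. The Pld5 run is chr1:176213973-176214192 (minus strand), the Coro2a run, from the inner of its 2 starts, is chr4:46566471-46566690 (minus strand), and the Padi2 run is chr4:140906110-140906329 (plus strand).
Pld5: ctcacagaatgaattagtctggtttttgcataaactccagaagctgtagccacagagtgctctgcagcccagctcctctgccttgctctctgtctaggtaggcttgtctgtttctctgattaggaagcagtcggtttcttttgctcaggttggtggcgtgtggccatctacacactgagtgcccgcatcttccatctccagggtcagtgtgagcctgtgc
Coro2a: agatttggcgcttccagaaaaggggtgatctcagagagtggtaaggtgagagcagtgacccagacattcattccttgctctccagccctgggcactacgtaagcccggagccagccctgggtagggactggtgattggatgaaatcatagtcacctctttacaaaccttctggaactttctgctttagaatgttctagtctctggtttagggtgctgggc
Padi2: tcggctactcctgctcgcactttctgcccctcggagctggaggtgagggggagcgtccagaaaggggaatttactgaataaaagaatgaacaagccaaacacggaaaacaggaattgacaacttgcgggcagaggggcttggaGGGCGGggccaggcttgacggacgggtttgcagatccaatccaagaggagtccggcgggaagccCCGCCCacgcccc

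The windows differed in base composition. Over the 250 bases before the RefSeq start, GC content was 52% at Pld5, 61.6% at Padi2, 73.6% at the outer Coro2a start and 49.2% at the inner one, against a median of 52.4% over all 32851 windows. The GC box (GGGCGG, either strand) occurred 3 times before Padi2 and 5 times before the outer Coro2a start, and 32.7% of all windows held at least 1. The core of the interferon-stimulated response element (a pair of GAAA runs with NN between them, either strand) occurred once, before the inner Coro2a start, in the part not printed here, and in 2.98% of all windows. No window of the 3 genes held the TATA box (TATAAA, in 12.4% of all windows), the E-box (CACGTG, 6.02%), the oestrogen response element (GGTCA and its inverted copy around NNN, 0.0639%), the STAT motif (TTCNNNGAA, 7.02%), the PU.1 motif (GAGGAAGT, 2.44%) or the AP-1 motif (TGACTCA, 4.46%), each searched on both strands.

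Depth was low: gene counts ran from 458608 to 4305003 per library, and the mitochondrial leucyl-tRNA synthetase gene Lars2 took 42.3% to 76.6% of them. Levels below are CPM, gene counts scaled to a common library total, after TMM scaling of the libraries. Lars2 counts stay in that total, so CPM values and the limits set on them are lower than without Lars2. In BALB/c female 2 the scaled total was 1521714 with Lars2 and 616472 without. Whether these reads came from Lars2 RNA was not tested. A count of 3, used as the detection floor, stood at 0.625 CPM in BWF1 male 3, the deepest library, and at 6.62 CPM in BWF1 female 1. Of the genes that define the sort, Itgam (CD11b) had 1 count over the BWF1 females, 37 over the BWF1 males and 22 over the BALB/c females, and Adgre1 (F4/80) had 23, 118 and 28. The 9 B cell markers summed to between 2100 and 2775 CPM over the 9 libraries and the 9 macrophage and gate markers to between 213 and 637 CPM. Which cells the reads of the 3 genes came from was not tested. The share of alignments that fell in counted genes was 1.29% to 2.05% in the 6 BWF1 libraries and 2.14% to 2.82% in BALB/c, so it separated the strains as the 3 genes do, and its part in their levels was not tested.

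Pld5 had 0 counts in each of the 3 BALB/c libraries and at least 4 in each BWF1 library. The counts were 7, 4 and 11 in BWF1 females 1 to 3 and 5, 18 and 80 in BWF1 males 1 to 3, or 15.4, 6.45 and 22.6 CPM and 9.81, 18.5 and 16.7 CPM. The lowest BWF1 libraries, female 2 and male 1, stood only just above their own floors of 4.84 and 5.88 CPM. The group means were 14.8 ± 8.1 CPM in females and 15.0 ± 4.6 in males (SD, n = 3). With the pooled level of the BWF1 females, the BALB/c libraries would together have held 55.3 counts, and with that of the males 64.2, both above the floor of 3 counts. Against 3 counts over the BALB/c group, a floor of 0.765 CPM, the pooled level of Pld5 was 18.4-fold higher in females and 21.4-fold higher in males. These folds are lower bounds for the BALB/c side only. They take the BWF1 level as measured, without its counting error. In bulk libraries, fewer expressing cells and less RNA per cell cannot be told apart.

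Coro2a had counts in every library. Its counts were 10, 19 and 21 in BWF1 females, 23, 42 and 213 in BWF1 males and 8, 5 and 3 in BALB/c females. On the CPM scale these were 22.1, 30.7 and 43.1 in females, 45.1, 43.1 and 44.4 in males and 5.75, 3.29 and 2.97 in BALB/c. Every BWF1 library lay above every BALB/c library, the males lay close together, and BALB/c female 3 lay at its floor of 3 counts. The BALB/c mean of 4.0 ± 1.5 CPM was 12.5% of the female mean of 31.9 ± 10.6 and 9.06% of the male mean of 44.2 ± 1.0 (n = 3 each). The ratio of pooled levels was 7.85 for females over BALB/c (exact 95% interval 4.40 to 14.8) and 10.8 for males (6.56 to 19.2), where the intervals cover counting error only. The fitted log2 fold changes were 2.95 (SE 0.33) and 3.41 (SE 0.31).

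Padi2, like Coro2a, had counts in every library. Its counts were 10, 9 and 12 in BWF1 females, 11, 27 and 183 in BWF1 males and 3, 5 and 5 in BALB/c females. These came to 22.1, 14.5 and 24.6 CPM, 21.6, 27.7 and 38.1 CPM, and 2.16, 3.29 and 4.96 CPM. The BWF1 and BALB/c libraries did not overlap, and BWF1 male 3, which holds 183 of the 221 male counts, was highest. BALB/c female 1 lay at its floor. Means were 20.4 ± 5.3 CPM in females, 29.1 ± 8.4 in males and 3.47 ± 1.4 in BALB/c (n = 3 each), so that BALB/c stood at 17.0% of females and 11.9% of males. The ratio of pooled levels was 5.99 for females over BALB/c (exact 95% interval 3.05 to 12.5) and 10.6 for males (6.07 to 20.2). The fitted log2 fold changes were 2.55 (SE 0.40) and 3.13 (SE 0.36).

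**Figure D1:**
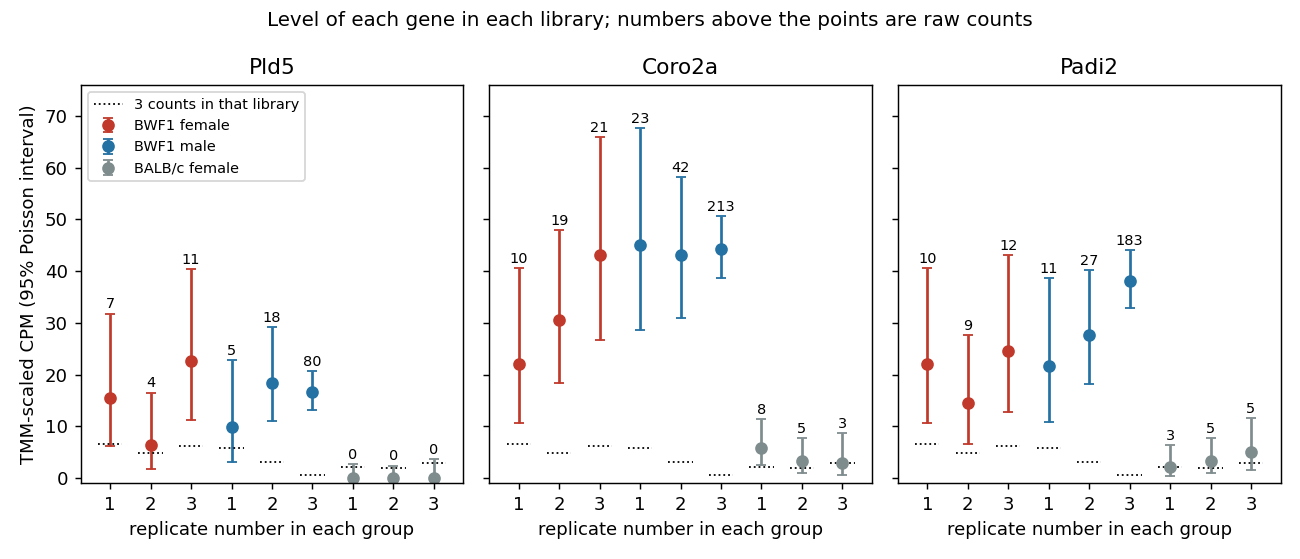
TMM-scaled CPM (vertical axis) of Pld5, Coro2a and Padi2 in each of the 9 libraries, by replicate number within BWF1 females (red), BWF1 males (blue) and BALB/c females (grey). Bars are 95% Poisson intervals, dotted lines the level of 3 counts in that library, and numbers the raw counts. Pld5 has 0 counts in all BALB/c libraries, and Coro2a and Padi2 stay below 6 CPM there.

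All 3 genes were called higher in both BWF1 groups by edgeR and did not overlap BALB/c in either, which follows from how they were chosen. Of all tested genes, 1.79% were called higher in BWF1 females and 1.67% in BWF1 males than in BALB/c females, and 0.557% in both comparisons, which share the BALB/c libraries. Without a test, 10.3% of tested genes lay above BALB/c in females without overlap, and 11.6% in males. All BALB/c libraries carried the tag ORIG in their file names, as did BWF1 female 2 and BWF1 male 2, and the labels do not say what it means. Within that tag, Coro2a stood at 30.7 and 43.1 CPM in these BWF1 libraries against at most 5.75 in BALB/c. Padi2 stood at 14.5 and 27.7 CPM against at most 4.96, and its call in females did not hold in a fit of these libraries alone. Pld5 was at least 8.44-fold higher in BWF1 female 2 and at least 24.1-fold higher in BWF1 male 2 than the BALB/c floor.

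Scaled by exon length, Coro2a was highest and Pld5 lowest in both BWF1 groups. In BWF1 females the mean level was 4.95 CPM per kb for Coro2a, 4.07 for Padi2 and 1.47 for Pld5, and in BWF1 males 6.84, 5.81 and 1.48. Among the tested genes, these levels of Coro2a and Padi2 lay at the 45.2nd and 36.6th percentile in females and at the 59.1st and 52.5th in males. Pld5 lay at the 5.97th and 7.40th. In BALB/c, Coro2a (0.620 CPM per kb) and Padi2 (0.691) both lay below the 1st percentile. This low rank follows from how they were chosen and from the filter, which set aside genes low in most libraries.

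The comparison of BWF1 females with BWF1 males played no part in the choice of the genes and was tested. None of the 3 was called by edgeR or limma-voom, against 2.19% of all tested genes called by edgeR, and DESeq2 gave no adjusted p for them. Of the 3, 0 had an unadjusted edgeR p under 0.05 (1 by limma-voom). For Pld5 the log2 fold change, female minus male, was −0.11 (95% interval −1.02 to 0.79; edgeR adjusted p = 0.939). Coro2a had −0.46 (−1.03 to 0.10; edgeR adjusted p = 0.42) and Padi2 −0.58 (−1.25 to 0.08; edgeR adjusted p = 0.384). The female and male libraries overlapped for each gene, and exact two-sided permutation tests of the CPM gave p = 1, 0.2 and 0.3, where 0.1 is the smallest that 3 against 3 allows. Coro2a overlapped only through BWF1 female 3 (43.12 CPM) and BWF1 male 2 (43.06 CPM). The ratio of pooled levels, female over male, weights BWF1 male 3 most. It was 0.565 for Padi2 (exact 95% interval 0.375 to 0.826), 0.725 for Coro2a (0.525 to 0.982) and 0.861 for Pld5 (0.517 to 1.37). These intervals cover counting error only. Over 20 alternatives with an adjusted p, that p ran from 0.575 to 1.00 for Pld5, 0.254 to 0.980 for Coro2a and 0.248 to 0.930 for Padi2.

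**Figure D2:**
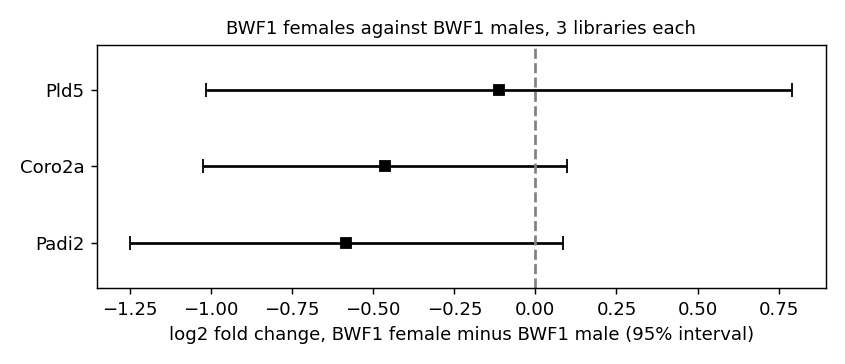
Log2 fold change between BWF1 females and BWF1 males (horizontal axis, female minus male) with its 95% interval for Pld5, Coro2a and Padi2. All 3 intervals include 0.

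The 3 genes were compared with each other within the cross. Over the 6 BWF1 libraries, Pld5 and Padi2 had Pearson's r = 0.74 (exact permutation p = 0.0889, adjusted over 3 pairs 0.267) and Spearman's rho = 0.77 (p = 0.103 by exact permutation, adjusted 0.308). Without BWF1 female 2 and BWF1 male 1, the libraries farthest from the Pld5 median, r was −0.14, so the relation rests on those libraries. For Coro2a and Padi2, r was 0.49 (exact permutation p = 0.367, adjusted 0.55) and rho 0.26 (exact p = 0.658), with r = −0.08 without BWF1 females 1 and 2. For Pld5 and Coro2a, r was 0.26 (exact permutation p = 0.553) and rho 0.14 (exact p = 0.803), with r = 0.62 without BWF1 female 2 and BWF1 male 1. None of the 3 relations passed, so a spread shared within the cross was not shown at this depth.

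Other genes low in BALB/c were looked at next. Of the 43 genes called higher in both BWF1 groups, 11 had a BALB/c mean under 5 CPM, and 10 of these are described here. The share of all tested genes with a BALB/c mean under 5 CPM was not counted, so whether 11 of 43 is many or few cannot be said. A mean under 5 CPM is low and not always silent. Ranked by the BALB/c level as a share of the BWF1 level, Pld5 stood lowest among the 10, at 0 counts in BALB/c. Next came the kinase gene Map3k19 at 2.27%, Coro2a at 10.5%, the predicted gene Gm12185 at 11.3% and Padi2 at 14.0%. The other 5 were St6galnac2, Ifitm1, Adgra2, Dhrs3 and Vwf, at 17.1% to 30.8%. Just inside the limit of 5 CPM lay Vwf (4.37) and Adgra2 (4.67), and just outside lay Ackr3 and Rapgef5 (5.65 each). Dhrs3, a retinaldehyde reductase gene, lies on chromosome 4 like Coro2a and Padi2 and starts 3.99 Mb from Padi2. In the opposite direction, 11 of the 65 genes called lower in both BWF1 groups (0.842% of those tested) had both BWF1 means under 5 CPM, and of them only Hba-a2 had 0 counts in all BWF1 libraries.

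**Figure D3:**
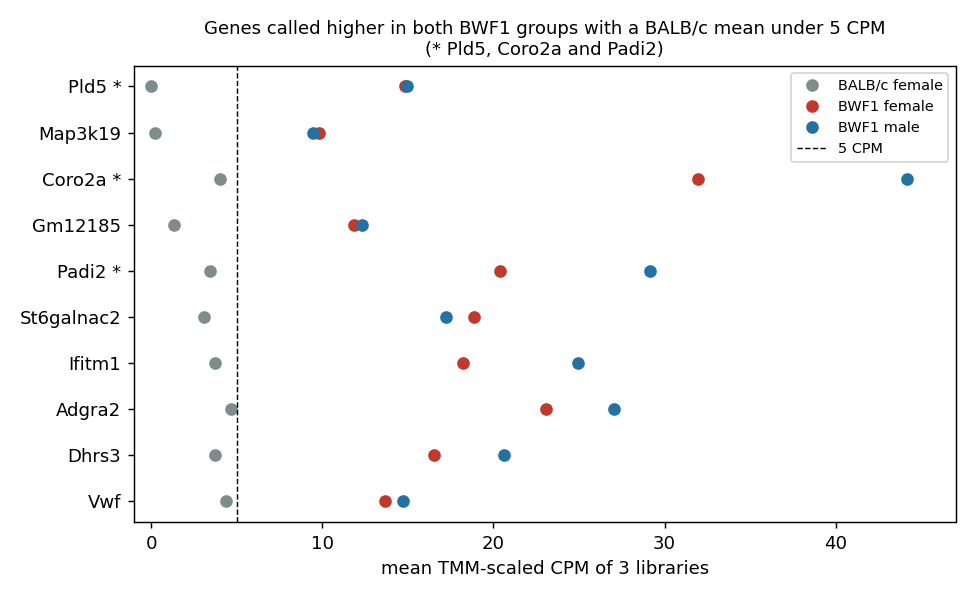
Mean TMM-scaled CPM (horizontal axis) of the 10 described genes called higher in both BWF1 groups whose BALB/c mean lies under 5 CPM (dashed line), ordered from the top by the BALB/c level as a share of the BWF1 level. Points are the means of 3 libraries, in grey for BALB/c females, red for BWF1 females and blue for BWF1 males, and an asterisk marks Pld5, Coro2a and Padi2.

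The genes most like each of the 3 over the 9 libraries included the others of the 3 for Pld5, and Pld5 for Padi2. Likeness was measured as Pearson's r of log2 CPM, given as a description, since the levels that chose the genes enter it. Among the 5 most alike genes, the values for Pld5 were 0.97 for Padi2, 0.96 for the endosomal recycling gene Rab11fip1, 0.95 for Dhrs3 and 0.95 for Coro2a. For Coro2a they included 0.98 for the endocytic gene Ehd3, 0.97 for the MHC class Ib gene H2-Q2, 0.96 for Dhrs3 and 0.95 for the restriction factor Apobec3. Padi2 was most like Pld5 (0.97), and the 5 most alike genes also held Crim1 (0.95), H2-Q2 (0.95) and Ly6e (0.94).

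Relatives of the 3 genes were examined next. Of all tested genes, 3.82% were called in females and 3.52% in males against BALB/c, and 2.19% between females and males, so 0 calls in lists this short is near the background and is no result about the relatives. Of the other 5 phospholipase D genes, the endolysosomal nucleases Pld3 and Pld4 were tested, and 0 of 2 passed in any of the 3 comparisons (Pld3 lowest, edgeR adjusted p = 0.135 between BWF1 females and males). Their median log2 fold change was −0.19 in females and 0.31 in males against BALB/c, beside −0.0024 and −0.0028 over all tested genes. Pld4, at 24.8, 32.1 and 24.5 CPM per kb in females and males of the cross and BALB/c females, stood above Pld5 in every group. Pld1 and Pld2 had 4 and 21 counts in BALB/c and Pld6 had 1, all below the filter.

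Of the 6 other coronins, 4 were tested and 0 passed in any comparison, beside 3.82%, 3.52% and 2.19% of all tested genes, so this too is near the background. Coro1a, the abundant leukocyte coronin, stood at 192, 255 and 228 CPM per kb in females and males of the cross and BALB/c females, with a log2 fold change of −0.25 (edgeR adjusted p = 0.413) for females and 0.16 (adjusted p = 0.656 by edgeR) for males against BALB/c. Coro2b, the closest relative of Coro2a by name, had 6, 26 and 4 counts and was not tested. Of the 8 genes of the NCoR complex and the LXR receptors, 7 were tested and 0 passed in any comparison, again near that background. Ncor1, the core of the complex, stood at 207 ± 12.2, 211 ± 42.0 and 198 ± 19.3 CPM (SD, n = 3) in females and males of the cross and BALB/c females. The lowest p was that of the X-linked subunit gene Tbl1x, with a log2 fold change of −0.57 for BWF1 females against BALB/c (edgeR adjusted p = 0.147).

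Padi2 was the only peptidylarginine deiminase above the filter. Padi4, best known from neutrophils, had 2, 11 and 7 counts over females and males of the cross and BALB/c females. Padi1, Padi3 and Padi6 together had 1 over the BWF1 libraries, and in BALB/c they had 0, 2 and 3. Per exon length, Padi4 stood at 0.294, 0.271 and 0.372 CPM per kb, so Padi2 lay above it in both BWF1 groups and, at 0.691 CPM per kb, in BALB/c. The oestrogen receptor genes Esr1, Esr2 and Gper1 were all below the filter, with Esr1 at 11, 33 and 14 counts in that order. Differences in these genes were not tested.

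Genes around the 3 were examined within 1 Mb of each start. Around Pld5, 0 of 5 tested neighbours passed in either comparison with BALB/c, and around Padi2 0 of 14, which include its downstream neighbour Sdhb. The background given above holds here too, with 2.03% of tested genes called lower in females and 1.85% in males. Around Coro2a, 2 of 11 passed in both. Trim14, an adaptor of antiviral signalling, rose in both groups. It lies on the minus strand of chromosome 4, like Coro2a, from 46493781 to 46536141, and starts 66.1 kb downstream of the Coro2a start. Its start lies just past the Coro2a end at 46536937, and whether reads running past Coro2a were counted in Trim14 was not tested. It stood at 26.5, 38.7 and 45.2 CPM in BWF1 females, 33.3, 26.7 and 25.4 in BWF1 males and 10.8, 13.1 and 12.9 in BALB/c, without overlap. Its log2 fold change was 1.58 (SE 0.28; edgeR adjusted p = 0.00101) in females and 1.18 (SE 0.27; edgeR adjusted p = 0.0116) in males. Both calls ended when libraries were scaled by size only (edgeR adjusted p = 0.104 and 0.325), and that of males also within the ORIG libraries (edgeR adjusted p = 0.147) or without BALB/c female 1 (edgeR adjusted p = 0.0615). The log2 fold change in males was 1.12 and 1.10 in these last 2 settings, close to the value over all libraries, and with scaling by size only it was 1.29 in females and 0.70 in males.

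Hemgn, an erythroid nuclear protein gene 189 kb downstream of the Coro2a start, fell in both groups. It stood at 0, 4.84 and 14.4 CPM in BWF1 females, 9.81, 3.08 and 4.37 in BWF1 males and 26.6, 40.7 and 18.8 in BALB/c, without overlap. Its log2 fold change was −2.16 (SE 0.52; edgeR adjusted p = 0.0162) in females and −2.53 (SE 0.48; edgeR adjusted p = 0.00166) in males. The call in females ended with limma-voom (adjusted p = 0.0547) and without BALB/c female 2, BWF1 female 1 or BWF1 female 2 (edgeR adjusted p = 0.119, 0.0741 and 0.0814), with log2 fold changes of −2.59, −1.81, −1.64 and −1.96 in that order, all in the same direction. The 7 erythroid markers summed to 484 to 1552 CPM in BWF1 females, 106 to 724 in BWF1 males and 1002 to 2921 in BALB/c, and their part in the result was not tested.

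**Figure D4:**
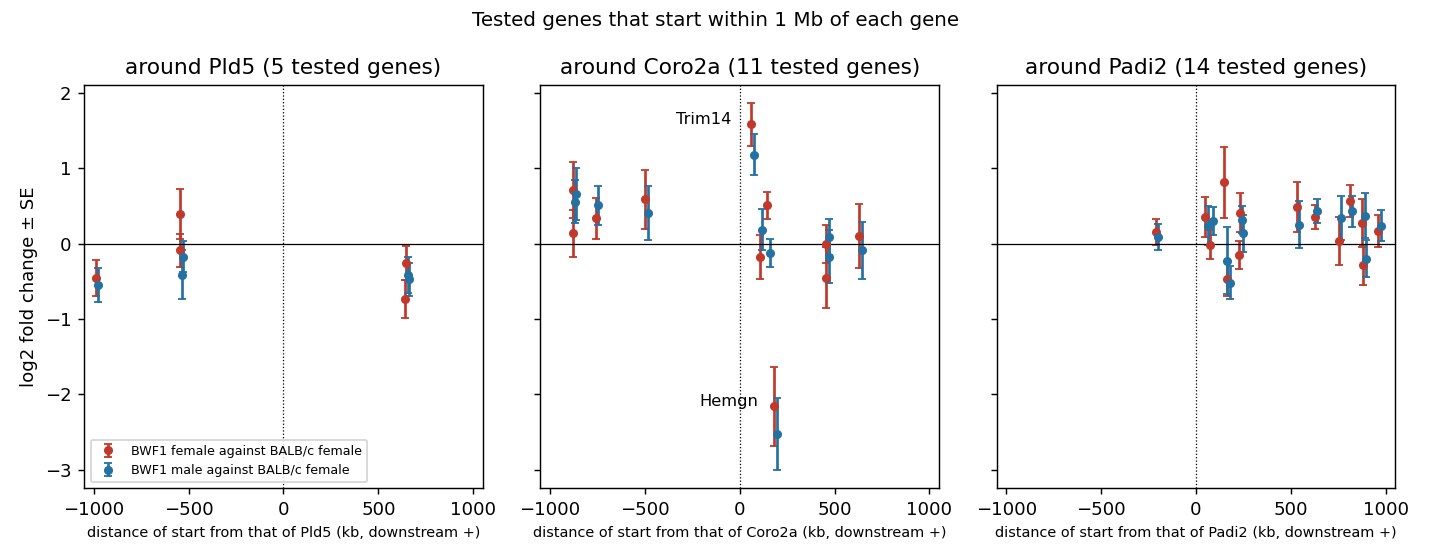
Log2 fold change ± SE (vertical axis) of BWF1 females (red) and BWF1 males (blue) against BALB/c females for the tested genes that start within 1 Mb of Pld5, Coro2a and Padi2, by distance from that gene's start in kb (horizontal axis, downstream positive, with the points of a gene set slightly apart). Trim14 above 0 and Hemgn below 0, both near Coro2a, are the only neighbours called.

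Inside Pld5 itself lies Rbm8a2, chosen here after its values were seen. It is on the same strand (chromosome 1, 175977777 to 175979114), shares 0 bases with Pld5 exons, and is named as a copy of the exon junction gene Rbm8a, so its counts are uncertain. Rbm8a2 had 2, 0 and 2 counts in BWF1 females, 2, 5 and 7 in BWF1 males and 0 in each BALB/c library. At the pooled BWF1 levels the BALB/c libraries would have held 10.1 (females) or 8.73 (males) counts. It lay below the filter and was not tested.

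Markers of most cell types did not separate BALB/c from both BWF1 groups in 1 direction. The 5 megakaryocyte and platelet markers did: they summed to 44.1 to 47.2 CPM in BWF1 females, 23.3 to 47.1 in BWF1 males and 12.9 to 17.2 in BALB/c, and exact two-sided permutation p was 0.1 for each BWF1 group against BALB/c. Of the 5, only Ppbp passed the filter on low counts. Its log2 fold change against BALB/c was 1.89 in females (edgeR adjusted p = 0.0145) and 0.63 in males (edgeR adjusted p = 0.528), where it was not called. Gp9 did not follow the sum, with means of 0.684 and 1.75 CPM in females and males of the cross and 1.86 in BALB/c, and with 1 count over the BWF1 females it lay below the floor there. The 9 B cell markers summed to 2100 to 2283 CPM in BWF1 females, 2114 to 2737 in BWF1 males and 2707 to 2775 in BALB/c. The 9 macrophage and gate markers went opposite ways, at 213 to 298, 415 to 637 and 346 to 397 CPM, with Itgam and Fcgr1 below the floor in BWF1 females (1 count each). The 5 red pulp macrophage markers summed to 71.9 to 110.3, 174 to 202 and 137 to 147 CPM in the same order of groups. The 8 plasma cell markers summed to 571 to 849, 1271 to 2101 and 691 to 835 CPM, with Tnfrsf17 below the floor in BWF1 females (1 count).

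The other lists overlapped BALB/c in at least 1 BWF1 group or differed from it in opposite directions. In the same order of groups, the 7 germinal centre B cell markers summed to 105 to 141, 51.0 to 79.1 and 52.5 to 62.4 CPM. The 9 T cell markers summed to 319 to 404, 520 to 558 and 342 to 493 CPM, and the 7 natural killer cell markers to 82.1 to 87.1, 271 to 274 and 108 to 145 CPM. The 8 neutrophil markers summed to 182 to 386, 285 to 669 and 270 to 374 CPM, and mast cell and basophil markers to 15.4 to 26.7, 17.7 to 31.6 and 19.8 to 32.2 CPM, with Cpa3, Fcer1a and Prss34 at 0 in BWF1 females and Fcer1a at 0 in BWF1 males. The 6 dendritic cell markers summed to 43.1 to 62.9, 43.2 to 58.4 and 57.5 to 92.7 CPM. Stromal and endothelial markers summed to 132 to 164, 120 to 154 and 164 to 192 CPM, with Madcam1 at 0 in BWF1 females. The part of these cell types in the levels of Pld5, Coro2a and Padi2 was not tested.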

How the data were processed

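Spleen RNA, depleted of ribosomal RNA, was sequenced from 9 libraries, 3 a group. The authors deposited raw read counts per gene, with 5 summary lines per file that stayed out of library sizes (1.29% to 2.82% of alignments fell in genes, no feature 37.2% to 42.1%, not unique 55.9% to 61.5%). Per the submitters' processing notes, FastQC 0.10.1, STAR 2.6 and the build mm10 were used. The annotation release and strand setting are not given in the sources used here. Of 21965 identifiers, 21939 matched GENCODE M21, which gave names and positions.

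Genes were kept with filterByExpr (edgeR 4.0.16, minimum count 10; 7719 kept, 14246 set aside), scaled with TMM and fitted over all 9 libraries with edgeR's quasi-likelihood test. P-values were adjusted by Benjamini and Hochberg over all tested genes, with calls at an adjusted p under 0.05. The SE is the log2 fold change divided by the square root of F, and 95% intervals use 25.37 degrees of freedom. Single values were compared with exact permutation tests. Intervals on counts are Poisson, and, as reads carried no molecular identifiers, they and the floor of 3 counts cover counting error only. On simulated data, 100% of 4-fold and 8-fold changes were recovered in each comparison over 7719 genes, with 10, 8 and 18 false calls among 210, 208 and 218. The counts were drawn with a spread set by level alone, and changes were made by raising 1 group. Falls to near silence in a group, as in the 3 genes, were not simulated, so recovery of such genes was not tested. DESeq2 1.42.0, limma-voom (limma 3.58.1), other scalings and filters, a replicate block and leaving out libraries were tried, and an earlier edgeR pipeline was added after seeing the data.

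The 3 genes, the related and marker lists and the rules were chosen with earlier results of these data known. Named genes are the 3 genes, members of those lists, called neighbours within 1 Mb, the 5 most alike genes by correlation, and the genes called higher in both BWF1 groups with a BALB/c mean under 5 CPM. A few genes that these rules name are not reported here. Protein sequences were not used here.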

Additional observations from a re-analysis of the deposited data

How the results depend on the processing

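Of the 3 genes, Coro2a and Padi2 stayed higher in both BWF1 groups than in BALB/c in every alternative run, and Pld5 in each that gave a bound (DESeq2, limma-voom, the earlier edgeR pipeline, the replicate block and the robust dispersion gave none). This direction follows from how the genes were chosen on the same libraries, so the runs show only how far the sizes move. The bounds of Pld5 take its BWF1 level as measured and leave out the counting error of that level. The log2 bound of Pld5 in BWF1 females was 3.08 within the ORIG libraries, and the log2 fold change of Padi2 moved from 2.55 to 2.09, in a fit with 1 library in each BWF1 group, assumed to vary like BALB/c. Scaling by library size only, which moves the median of all genes by −0.29, −0.44 and 0.16 in the 3 comparisons (females against BALB/c, males against BALB/c, females against males), gave 2.97 for Coro2a in males. Leaving out 1 library gave bounds for Pld5 of 3.50 to 4.65 in females and 3.72 to 4.46 in males, lowest without BALB/c female 2, where fewer libraries raise the floor, 2.30 to 2.84 for Padi2 in females and 3.27 to 3.77 for Coro2a in males. Between BWF1 females and males, Pld5 turned sign with library size only (0.0019), without BWF1 female 2 (0.29) and without BWF1 male 2 (0.02), within a range of −0.56 to 0.29, and stood at −1.50 within the ORIG libraries.

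Counts of called genes moved more. Against BALB/c, 295 genes in BWF1 females became 169 with DESeq2 and 130 with library size only (23 higher, 107 lower, against 138 and 157), and 183 to 361 without 1 library (183, 187 and 186 without BALB/c females 1, 2 and 3). In BWF1 males, 272 became 430 without Lars2, 151 within the ORIG libraries, 484 with the earlier edgeR pipeline, 650 with limma-voom, 510 without a filter, and 119 (without BALB/c female 2) to 379 without 1 library, with 151 without BWF1 male 3. Between females and males, 169 became 105 with DESeq2, 25 within the ORIG libraries, 59 with library size only (45 higher, 14 lower, against 74 and 95), 304 without a filter, 111 with only the 2 groups, and 58 (without BWF1 male 3) to 183 without 1 library, with 97 without BWF1 male 2 and 106 without BWF1 female 3. The cause of these shifts was not tested. For the group of genes nearly silent in BALB/c, the limit of 5 CPM stayed on the scale that includes Lars2, also where Lars2 was left out. Membership in that setting was thus partly fixed in advance. The group of 11 genes nearly silent in BALB/c held 8 genes within the ORIG libraries, with Pld5 and Coro2a but not Padi2, whose call in females was lost there, and otherwise 10 to 24 with all 3, 17 at a minimum count of 5 and 24 without a filter.

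Replicate numbers did not pair the libraries: over 9 pairs of same-numbered libraries, their deviations from the group mean of each gene (log2 CPM) correlated at −0.09 to 0.06. With the replicate block, 255, 240 and 118 genes were called, Coro2a stood at 2.93 and 3.40 and Padi2 at 2.54 and 3.06 against BALB/c in females and males, and between females and males Pld5 stood at −0.09, Coro2a at −0.46 and Padi2 at −0.52, with 0 of the 3 called. Depth limits Pld5 most: BWF1 female 2 holds 4 counts and BWF1 male 1 holds 5.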
